A study of Mus musculus with 29 samples.

Results

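The genes described here are 43 mouse gene symbols of the NF-kB pathway. They comprise NF-kB subunits, IkB proteins, subunits of the IkB kinase (IKK), and adaptors and kinases, which are read together as components, and genes that NF-kB regulates, which are read as targets. A row of the deposited table was a member when its symbol was on this list. The list was chosen with earlier results of these data known. Of the 43 symbols, 40 were among the 23930 genes of the table, 25 of them components and 15 targets. Nfkb1, Bcl2a1b and Bcl2a1d were not analysed here.

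NF-kB transcription factors are dimers of Rel proteins that IkB proteins hold in the cytoplasm of resting cells. Toll-like receptors and the interleukin-1 receptor signal through Myd88, the Irak kinases and Traf6 to the IKK complex, which marks IkB proteins for degradation and frees the dimers to enter the nucleus. Several of the genes they induce encode brakes on the same pathway, such as Nfkbia (IkB alpha) and Tnfaip3 (A20), so these transcripts are components or restraining factors and inducible targets at the same time.

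RNA was measured in 29 libraries of macrophages sorted from spleen and liver of untreated wild-type (C57BL/6) mice and of Rnaset2-/- mice, which lack Rnaset2a and Rnaset2b, the genes of the endosomal ribonuclease RNase T2, in every cell. Ly6C high macrophages were sorted as CD11b(+), Ly6G(-), SiglecF(-) and NK1.1(-), and Ly6C low macrophages by these markers with Fcgr4(+) in addition. Wild-type Kupffer cells (KCs), the resident macrophages of the liver, were sorted as F4/80(+), CD11b(int), Tim4(+) and PDCA-1 low. There were 3 libraries in each group, except 4 of Rnaset2-/- spleen Ly6C low macrophages and 4 of KCs. Age, and the number of mice behind a library, were not given in the sources used here. Spleens were minced mechanically, and livers were processed in a heated dissociator, so organ and dissociation cannot be told apart in any comparison of liver with spleen.

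Each library held 11175843 to 21167602 reads (median 13027220). Values are reads scaled to a common library total (RPM), and the level that 3 reads allow, which covers counting error only, lay between 0.142 and 0.268 RPM. Of 9 macrophage and monocyte markers, none was at 0 in every library of any group. The Kupffer cell list summed to 16986 to 18957 RPM in KC replicates 1, 2 and 4 and to 6933 RPM in KC replicate 3. It summed to 7152 to 11846 RPM in Rnaset2-/- liver Ly6C low macrophages, against 473 to 808 RPM in wild-type liver Ly6C low macrophages. By the paper's account, these Rnaset2-/- macrophages lack the KC markers Tim4 and Clec4f. In the table, none of the 8 genes of the Kupffer cell list, which includes Clec4f and Timd4 (Tim4), was at 0 in every library of these macrophages. The levels of Clec4f and Timd4 there are not given here. Clec4f was at 0 in every library of 3 spleen groups. The deleted genes Rnaset2a and Rnaset2b and the genes for Ly6C were not analysed here. All 6 Rnaset2-/- liver libraries had Xist at 0 to 0.154 RPM and 4 Y-linked genes at a sum of 150.1 to 291 RPM. The 6 wild-type liver Ly6C libraries had Xist at 321.5 to 539 RPM. Their Y-linked sum was 0 in replicate 1 of both subsets and 28.95 to 52.03 RPM in replicates 2 and 3, which thus held both Xist and Y-linked reads. Genotype and this difference in Xist and Y-linked genes cannot be told apart in the liver. In the spleen only replicate 2 of Rnaset2-/- Ly6C low macrophages had low Xist, at 0.781 RPM.

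A gene was called higher or lower at a change of more than 1.5-fold with an adjusted p below 0.05 in limma (two-sided, Benjamini-Hochberg over all genes tested in that comparison). Fold changes are on the scale of log2(scaled RPM + 1), which understates changes of genes at low levels. Since the kit amplifies 1 target region per gene, levels are compared between groups and not between genes. Where values are set against each other, those of wild type come first. In bulk RNA, fewer cells of a type and less RNA per cell cannot be told apart.

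The first question was how the NF-kB genes of macrophages differ when RNase T2 is absent. It was addressed by 4 comparisons of Rnaset2-/- with wild-type macrophages, which share no libraries with each other. Whether the subsets of an organ came from the same mice was not given, so these comparisons may not be independent. In both liver subsets the lower genes included 4 IkB genes, Rel, Tnfaip3, Birc3 and the surface genes Cd83, Cd80 and Plaur. In the spleen Nfkbia, Tnfaip3 and Sdc4 were lower in the Ly6C high subset and Cd83 in the Ly6C low subset. Ikbke, an IKK-related kinase, and Irak3, an inhibitory member of the Irak family, were called higher in all 4 comparisons, and Cd80, a costimulatory ligand for T cells, was called lower in all 4.

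In liver Ly6C low macrophages, 20 of 40 members were lower and 2 were higher in Rnaset2-/- mice, where 22.5% of all tested genes were lower and 20.2% were higher. The median log2 fold change was -0.80 over the members and 0.014 over all tested genes. Among components, 12 of 25 were lower and 2 higher, and among targets 8 of 15 were lower and none of them was higher. In liver Ly6C high macrophages, 17 of 40 members were lower and 4 higher, against 14.9% lower and 15.7% higher of all tested genes, and the medians were -0.39 and 0.015. Components contributed 12 lower and 4 higher calls of 25, and targets 5 lower calls of 15. With RPM as deposited, without scaling factors, this comparison gave 13 lower and 6 higher members, and the median of all genes moved to 0.305. Without replicate 2 of the Rnaset2-/- group it gave 13 lower members and 0 higher, and without replicate 1 or 3 of the wild-type group 14 and 15 lower and 0 higher.

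In spleen Ly6C high macrophages, 8 of 38 tested members were lower and 6 higher in Rnaset2-/- mice, where 12.5% of all tested genes were lower and 9.77% were higher. The medians were 0.048 over the members and 0.015 over all genes. Components had 4 lower and 3 higher calls of 24, and targets 4 lower and 3 higher of 14. A single fit of all libraries gave 7 calls and ended those of Nfkbib, Nfkbiz, Ikbke, Tnip3, Sod2, Ptgs2 and Sdc4 (adjusted p 0.0649 to 0.505). In spleen Ly6C low macrophages, 2 of 39 tested members were lower and 4 higher, against 4.30% lower and 4.05% higher of all genes, so the share of members called lower was near the background. There the medians were -0.21 and 0.0090, and the 6 calls became 3 without replicate 2 or without replicate 3 of the wild-type group and 9 without replicate 1 of the Rnaset2-/- group. Without replicate 2 of the Rnaset2-/- group, the library with low Xist, 3 members were higher and 2 lower. Chuk in Ly6C high and Nos2 in both spleen subsets were too low to be tested. Rela, Relb, Nfkbie, Irak4, Traf2, Traf3, Cflar, Tnfaip2 and Icam1 were called in none of the 4 comparisons, and Nos2 was not called in either liver comparison.

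**Figure D1:**
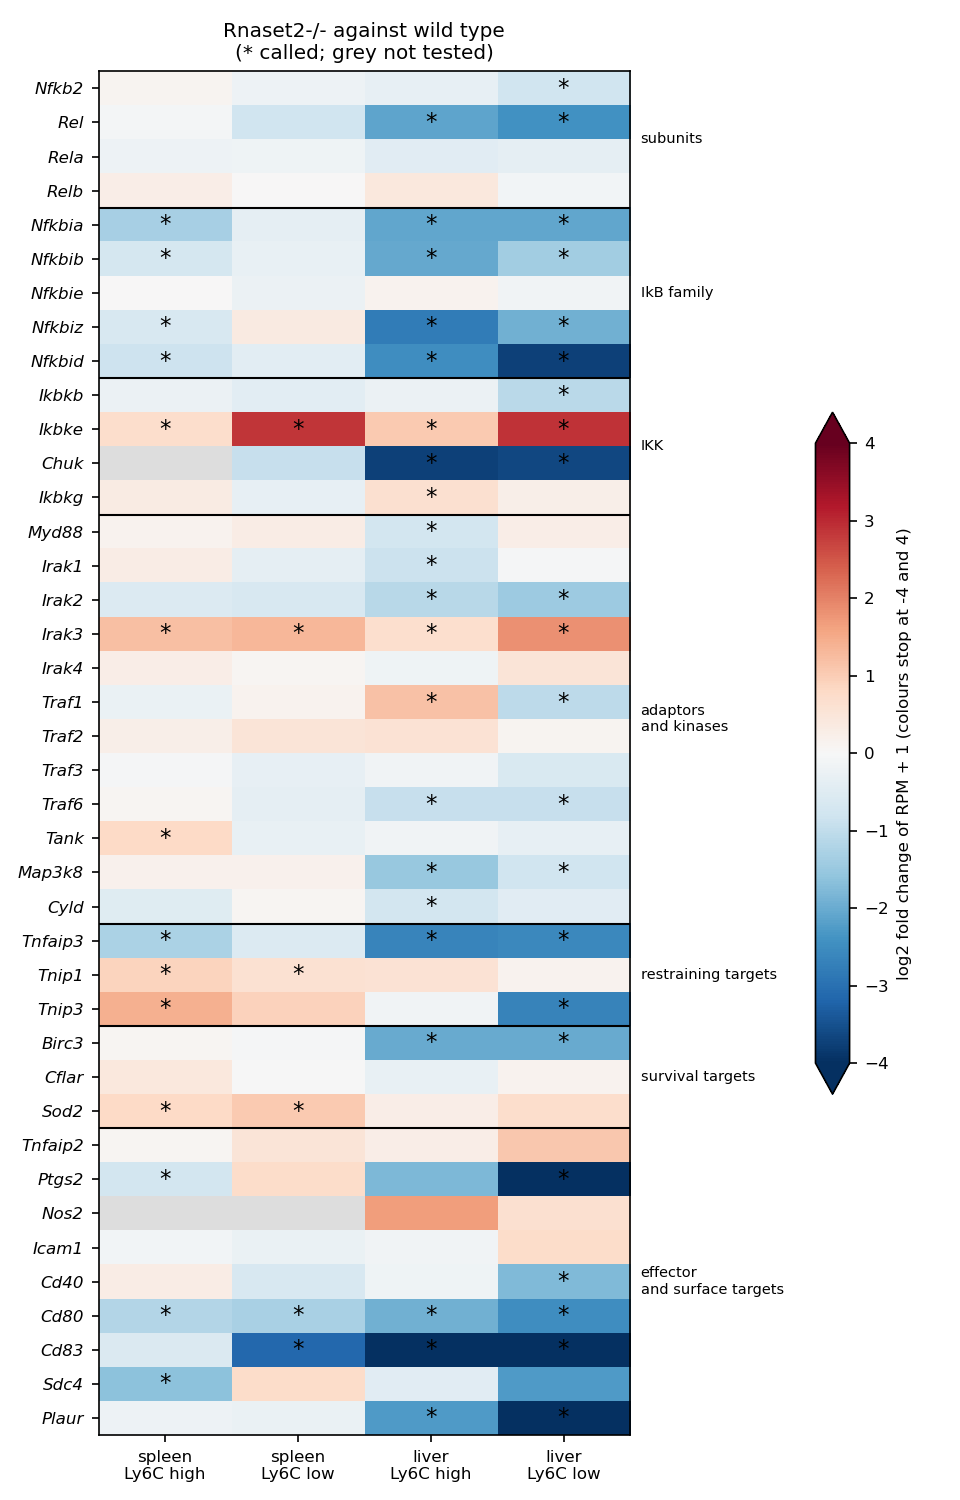
Log2 fold change of RPM + 1 (colour, from -4 in dark blue to 4 in dark red) of the 40 members in Rnaset2-/- against wild-type macrophages, with a row for each gene by role and a column for each organ and subset; asterisks mark called genes and grey cells were not tested. The 2 liver columns hold 17 and 20 lower calls, 4 of each in the IkB family, and Ikbke and Irak3 are red with an asterisk in all 4 columns.

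The promoters of the members were searched for the kappa-B consensus, the DNA motif that NF-kB dimers bind. RefSeq promoter sequences (GRCm38.p6, from 250 bases before to 50 bases after the transcription start) matched 33 of the 40 members by symbol; Relb, Nfkbiz, Ikbkb, Map3k8, Nos2, Cd40 and Cd83 had no match. The consensus of 10 bases was present, on either strand and counting overlapping matches, in 15 of 33 members (45.5%), in 9 of 21 components and in 6 of 12 targets, against 10.5% of the 17223 genes of the table with a promoter and 8.46% of all 32851 promoters of this length. Of the components whose own genes NF-kB is known to induce, 5 of 7 held it. It was present in 4 of 11 matched members that were lower in both liver comparisons and in 7 of 15 that were lower in neither. Shown here are the 4 genes lower in both liver comparisons that hold the motif, Nfkbia, Nfkbid, Rel and Tnfaip3, and beside them Sod2 and Tnip1, which hold it and were higher in both spleen subsets. The windows are chr12:55492642-55492701 (minus strand, first base of the match -29 from the start) for Nfkbia, chr7:30422200-30422259 (plus strand, first base of the match -181 from the start) for Nfkbid, chr11:23771027-23771086 (minus strand, first base of the match -92 from the start) for Rel, chr10:19015388-19015447 (minus strand, first base of the match -12 from the start) for Tnfaip3, chr17:13007731-13007790 (plus strand, first base of the match -83 from the start) for Sod2 and chr11:54962964-54963023 (minus strand, first base of the match -58 from the start) for Tnip1. They are printed 5′ to 3′ on the strand of the gene, with the match in capitals.
Nfkbia: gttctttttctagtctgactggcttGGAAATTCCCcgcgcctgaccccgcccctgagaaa
Nfkbid: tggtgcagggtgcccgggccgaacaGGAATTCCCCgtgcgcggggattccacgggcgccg
Rel: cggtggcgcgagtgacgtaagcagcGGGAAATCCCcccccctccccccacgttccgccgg
Tnfaip3: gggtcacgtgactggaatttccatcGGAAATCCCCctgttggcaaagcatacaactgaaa
Sod2: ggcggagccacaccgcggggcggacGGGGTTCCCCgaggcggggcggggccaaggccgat
Tnip1: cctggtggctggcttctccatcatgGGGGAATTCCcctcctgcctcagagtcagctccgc
A match describes the letters of the sequence and does not show binding. Genes with a match were thus found both among members that fell in the liver and among members that did not.

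Of the 4 subunits, Rel was the one called in both liver subsets. It encodes c-Rel, an activating subunit whose gene is itself induced by NF-kB. In liver Ly6C low macrophages Rel was at 310.4, 386 and 672 RPM in wild-type and 51.96, 81.01 and 133 RPM in Rnaset2-/- mice. In Ly6C high macrophages the values were 235, 489 and 251 RPM in wild-type and 43.8, 123 and 123 RPM in Rnaset2-/- mice. No Rnaset2-/- library reached the lowest wild-type library in either subset, and Rel was called lower in both (log2 fold change -2.42 ± 0.40 (SE), adjusted p = 0.00187 in Ly6C low; log2 fold change -2.12 ± 0.40 (SE), adjusted p = 0.00695 in Ly6C high). In the spleen it was not called (-0.08, adjusted p = 0.593, in Ly6C high and -0.81, adjusted p = 0.341, in Ly6C low), and the 4 Rnaset2-/- libraries of the Ly6C low subset ran from 35.6 to 193 RPM.

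Rela encodes p65, the main activating subunit. It was at 338, 282 and 273 RPM in wild-type and 272, 265 and 281 RPM in Rnaset2-/- liver Ly6C high macrophages, and at 263, 266 and 225 RPM against 167, 205 and 240.2 RPM in Ly6C low macrophages. The genotypes overlapped in both, and the log2 fold changes were -0.44 (adjusted p = 0.0913) and -0.35 (adjusted p = 0.165). In spleen Ly6C high macrophages all 3 Rnaset2-/- libraries (199.6, 214 and 193 RPM) lay below the wild-type libraries (247, 250.4 and 265 RPM), with a log2 fold change of -0.21 that was not called (adjusted p = 0.0948). In the spleen Ly6C low subset the Rnaset2-/- libraries ran from 223 to 348 RPM and held all 3 wild-type libraries within their range (-0.18, adjusted p = 0.534). Nfkb2, the precursor of p52 in the alternative pathway, was lower in liver Ly6C low macrophages (log2 fold change -0.80 ± 0.21 (SE), adjusted p = 0.0161), and this call was lost without replicate 1 or 2 of the wild-type or replicate 2 of the Rnaset2-/- group (highest adjusted p 0.0548). Relb, the partner of p52, lay between 0.997 and 4.22 RPM in the 25 Ly6C libraries and was not called in these comparisons.

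In the IkB family, 4 of 5 members were lower in each liver subset. Of all tested genes, 14.9% were lower in Ly6C high and 22.5% in Ly6C low macrophages. The fifth member, Nfkbie (IkB epsilon), was not called. Nfkbia encodes the inhibitor that NF-kB resynthesises first after activation. It was at 1869, 2668 and 2161 RPM in wild-type and 641, 577 and 767 RPM in Rnaset2-/- liver Ly6C high macrophages. Liver Ly6C low macrophages had 1323, 1974 and 1875 RPM against 377, 496 and 377 RPM. The groups were far apart in both subsets, with means 3.37 and 4.14 times higher in wild type in RPM as deposited, the scale of all ratios of means given here (log2 fold change -2.07 ± 0.22 (SE), adjusted p = 0.000848 and log2 fold change -2.08 ± 0.22 (SE), adjusted p = 0.000249). Nfkbia was also lower in spleen Ly6C high macrophages, at 981, 928 and 952 RPM against 324, 489.5 and 274 RPM (log2 fold change -1.32 ± 0.19 (SE), adjusted p = 0.000446). In spleen Ly6C low macrophages the 4 Rnaset2-/- libraries (793, 919, 894 and 932 RPM) lay below the 3 wild-type libraries (1092, 1291 and 1046 RPM), but the difference of -0.36 was not called (adjusted p = 0.135).

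Nfkbiz encodes IkB zeta, a nuclear IkB protein that is itself induced and helps to switch on secondary response genes. Wild-type liver macrophages had 2248, 2699.8 and 2519 RPM in the Ly6C high and 2674, 2670.5 and 2749 RPM in the Ly6C low subset. Rnaset2-/- liver macrophages had 257, 504 and 665 RPM and 528, 918 and 806 RPM. The wild-type means were 5.24 and 3.59 times higher, with no overlap (log2 fold change -2.80 ± 0.30 (SE), adjusted p = 0.000837 and log2 fold change -1.92 ± 0.24 (SE), adjusted p = 0.000464). In the spleen, Ly6C high macrophages were at 912, 940.0 and 891 RPM in wild-type and 535, 585 and 494 RPM in Rnaset2-/- mice (log2 fold change -0.65 ± 0.10 (SE), adjusted p = 0.000878). Spleen Ly6C low macrophages were at 1626, 1466 and 1687 RPM against 1416, 2044, 2390.4 and 2493 RPM. The Ly6C high groups were apart, and the Ly6C low groups overlapped and were not called (0.37, adjusted p = 0.325). The Ly6C high call in the spleen was lost without replicate 3 of the Rnaset2-/- group and in the single fit of all libraries (highest adjusted p 0.0696).

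Nfkbid, which encodes another nuclear IkB protein, IkB NS, went from 304, 626 and 449 RPM in wild-type to 30.6, 38.4 and 31.6 RPM in Rnaset2-/- liver Ly6C low macrophages (log2 fold change -3.72 ± 0.27 (SE), adjusted p = 4.21e-05). Nfkbib (IkB beta) was lower in liver Ly6C high and Ly6C low macrophages (log2 fold changes -2.06 and -1.39, adjusted p = 0.00192 and 0.0055). Both genes were also lower in spleen Ly6C high macrophages (log2 fold changes -0.82 and -0.69, adjusted p = 8.95e-05 and 0.000625), and the call of Nfkbib was lost in the single fit (adjusted p 0.0649). None of the 5 members of the family was called in spleen Ly6C low macrophages, with log2 fold changes between -0.43 and 0.37.

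**Figure D2:**
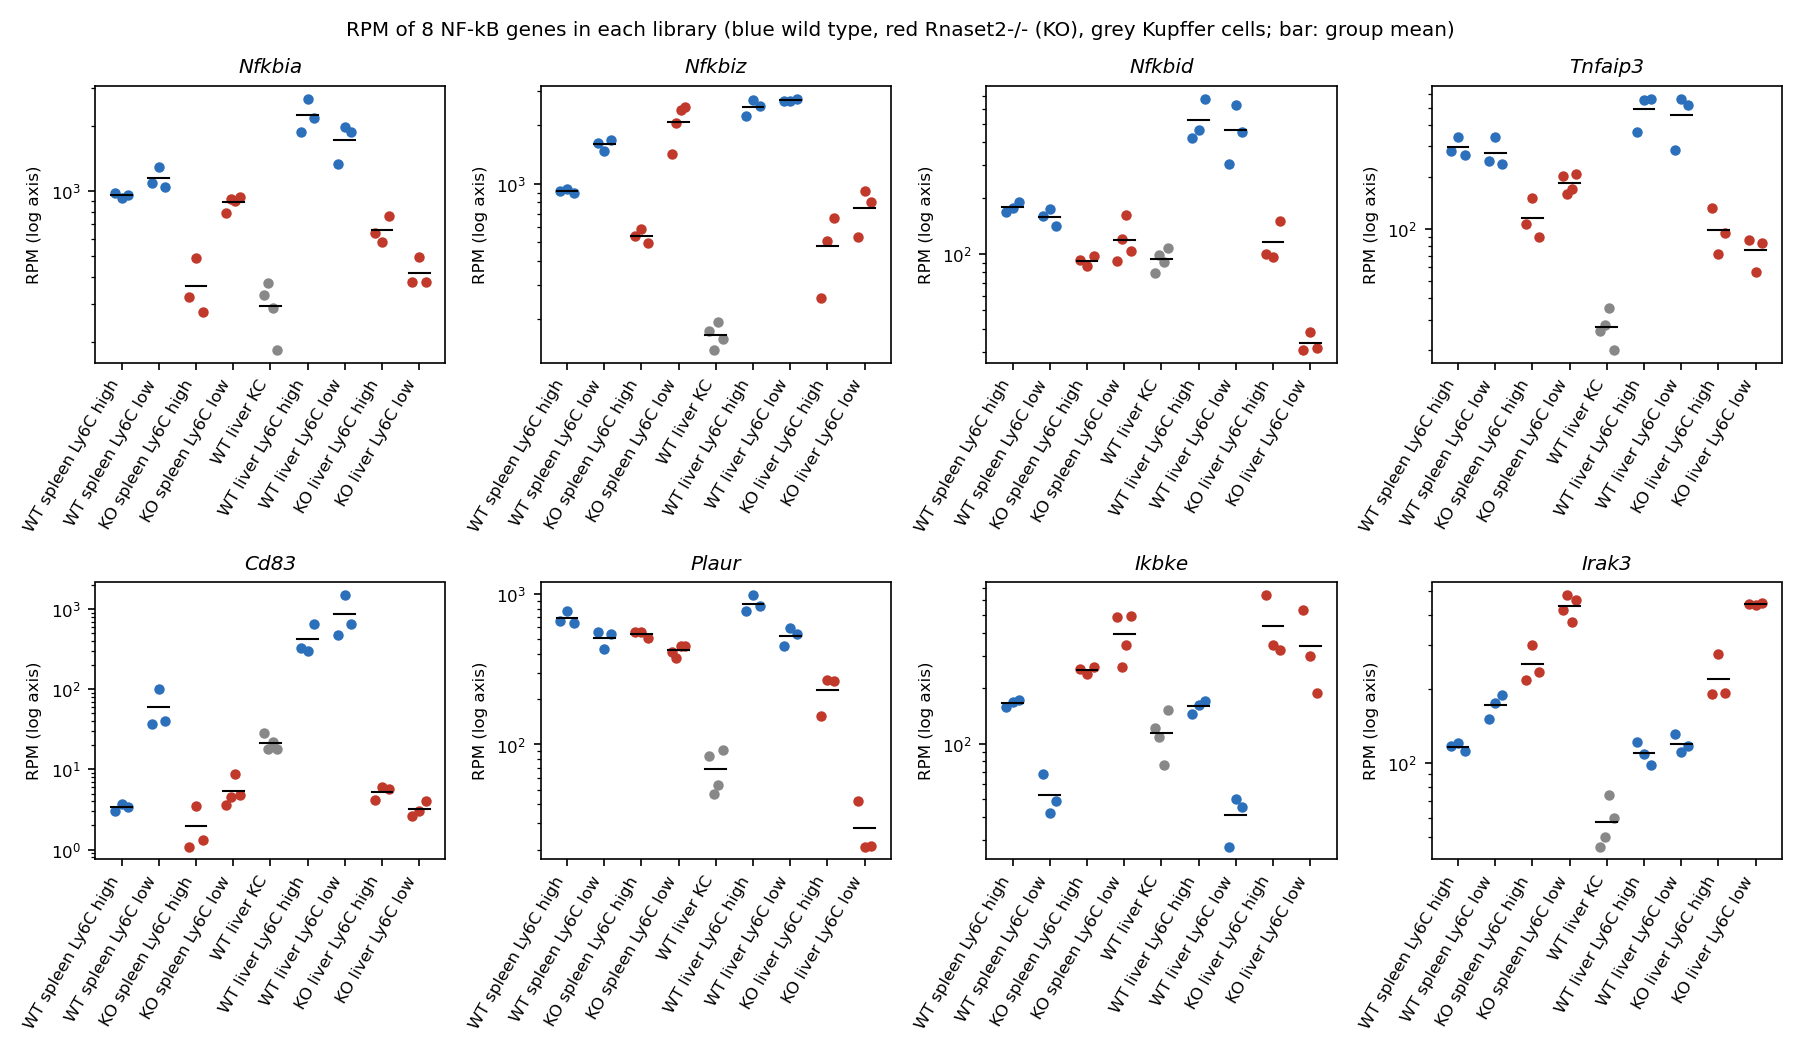
RPM (log axis) of Nfkbia, Nfkbiz, Nfkbid, Tnfaip3, Cd83, Plaur, Ikbke and Irak3 in each of the 29 libraries by group, with wild type in blue, Rnaset2-/- (KO) in red, Kupffer cells in grey and a bar at the group mean. The 2 wild-type liver Ly6C groups have the highest means for Nfkbia, Nfkbiz, Nfkbid, Tnfaip3 and Cd83, and for Ikbke and Irak3 the red points lie above the blue points of the same organ and subset.

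In the IKK group, Ikbke was called higher in all 4 comparisons and Chuk lower in both liver comparisons. Ikbke, whose product IKK epsilon acts beside Tbk1 in interferon and NF-kB signalling, was at 27.6, 49.8 and 45.4 RPM in wild-type and 533, 299.8 and 188 RPM in Rnaset2-/- liver Ly6C low macrophages. Spleen Ly6C low macrophages had 67.9, 41.7 and 48.8 RPM and 486, 259, 343 and 494 RPM. Every Rnaset2-/- library lay above every wild-type library of its subset, and the means were 8.31 and 7.49 times higher (log2 fold change 2.90 ± 0.38 (SE), adjusted p = 0.000632 in liver; log2 fold change 2.87 ± 0.26 (SE), adjusted p = 0.000579 in spleen). In Ly6C high macrophages it went from 158, 167 and 173 to 253, 239.9 and 261 RPM in the spleen and from 145, 162 and 170.4 to 639.6, 341 and 323 RPM in the liver, again without overlap (log2 fold changes 0.71, adjusted p = 0.000146, and 1.06, adjusted p = 0.0398). The call in liver Ly6C high macrophages was lost without any single wild-type library and without replicate 2 of the Rnaset2-/- group (highest adjusted p 0.129), and that in spleen Ly6C high macrophages in the single fit (adjusted p 0.155).

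Chuk, which encodes IKK alpha, the kinase of the alternative pathway, was at 29.1, 13.4 and 32.7 RPM in wild-type and 0.691, 1.24 and 1.69 RPM in Rnaset2-/- liver Ly6C high macrophages. Liver Ly6C low macrophages had 18.1, 36.5 and 12.7 RPM and 1.08, 0.467 and 0.689 RPM. The lowest wild-type library, at 12.7 RPM, was thus far above the highest Rnaset2-/- library, at 1.69 RPM (log2 fold change -3.74 ± 0.38 (SE), adjusted p = 0.000708 and log2 fold change -3.66 ± 0.38 (SE), adjusted p = 0.000217). In the 13 spleen libraries Chuk lay between 0.614 and 6.245 RPM and was not called. Ikbkb (IKK beta), the kinase of the classical pathway, was lower in liver Ly6C low macrophages (log2 fold change -1.07 ± 0.19 (SE), adjusted p = 0.00299) and not called in the other comparisons, and Ikbkg (NEMO), the regulatory subunit, was higher in liver Ly6C high macrophages (log2 fold change 0.65 ± 0.19 (SE), adjusted p = 0.033), a call lost without any single wild-type library and without Rnaset2-/- replicate 2 or 3 (highest adjusted p 0.104).

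Irak3, also known as IRAK-M, has no effective kinase activity and restrains Toll-like receptor signalling in macrophages. It was at 131, 111 and 117 RPM in wild-type and 443, 439 and 444 RPM in Rnaset2-/- liver Ly6C low macrophages. In spleen Ly6C low macrophages the values were 151, 175 and 189 RPM and 418, 479.9, 372 and 459 RPM. Rnaset2-/- libraries were higher without overlap in both, with log2 fold changes of 1.84 ± 0.14 (adjusted p = 6.05e-05) and 1.34 ± 0.14 (adjusted p = 0.0012). In Ly6C high macrophages it went from 117, 121 and 112 to 217, 302 and 234 RPM in the spleen and from 121, 109 and 97.9 to 190.3, 277 and 192 RPM in the liver (1.20, adjusted p = 9.65e-05, and 0.67, adjusted p = 0.0374). As with Ikbke, the call in liver Ly6C high macrophages was lost without any single wild-type library and without Rnaset2-/- replicate 2 (highest adjusted p 0.128).

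Myd88, the adaptor shared by most Toll-like receptors, was at 324, 223 and 339.8 RPM in wild-type and 219, 209.8 and 222 RPM in Rnaset2-/- liver Ly6C high macrophages. Its lowest wild-type library stood just above the highest Rnaset2-/- library, and the call (log2 fold change -0.74 ± 0.22 (SE), adjusted p = 0.0395) was lost with RPM as deposited and without replicate 1 or 3 of the wild-type or replicate 2 or 3 of the Rnaset2-/- group (highest adjusted p 0.144). In liver Ly6C low macrophages Myd88 was at 226, 222 and 222 RPM against 227, 312 and 294 RPM (0.26, adjusted p = 0.254), in spleen Ly6C high at 215, 239.6 and 235 RPM against 232, 237 and 231 RPM (0.14, adjusted p = 0.231), and in spleen Ly6C low at 177, 160.4 and 199.5 RPM against 254, 219.9, 185 and 221 RPM (0.30, adjusted p = 0.158). None of these 3 differences was called, and the Rnaset2-/- mean was the higher one in each.

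Of the 12 adaptors and kinases, 6 were lower in liver Ly6C high and 4 in liver Ly6C low macrophages. The shares of all tested genes called lower were 14.9% and 22.5%. Irak2, a kinase that sustains the response, was lower in both liver subsets (-1.12, adjusted p = 0.0128, in Ly6C high and -1.45, adjusted p = 0.00181, in Ly6C low), as were Traf6, the ubiquitin ligase below Myd88 (-0.92, adjusted p = 0.0072, and -0.92, adjusted p = 0.00577), and Map3k8 (Tpl2), the kinase that links the pathway to ERK (-1.51, adjusted p = 0.000984, and -0.80, adjusted p = 0.0167). The call of Traf6 in Ly6C high macrophages was lost with RPM as deposited (adjusted p 0.0513). The call of Irak2 in Ly6C high macrophages was lost without Rnaset2-/- replicate 2 (adjusted p 0.0539), and that of Map3k8 in Ly6C low macrophages without wild-type replicate 2 or 3 (highest adjusted p 0.0771). Cyld, a deubiquitinase that restrains the pathway, and Irak1 were lower in liver Ly6C high macrophages (-0.74, adjusted p = 0.0163, and -0.85, adjusted p = 0.0468, with overlapping groups for Irak1), and each call was lost without replicate 1 of the wild-type or replicate 2 or 3 of the Rnaset2-/- group and with RPM as deposited. Traf1 is an NF-kB-induced adaptor of TNF receptors. It was at 3.47, 8.26 and 5.55 RPM in wild-type and 18.6, 14.98 and 16.8 RPM in Rnaset2-/- liver Ly6C high macrophages, and at 10.3, 8.80 and 11.1 RPM against 5.93, 3.89 and 3.75 RPM in liver Ly6C low macrophages. It was thus called higher in the first (log2 fold change 1.17 ± 0.30 (SE), adjusted p = 0.0228) and lower in the second (log2 fold change -1.05 ± 0.24 (SE), adjusted p = 0.0083), in each case without overlap, and the call in Ly6C high macrophages was lost without replicate 1 or 3 of the wild-type or replicate 2 or 3 of the Rnaset2-/- group (highest adjusted p 0.0771). Tank, a scaffold of TRAF proteins and IKK-related kinases, was higher in spleen Ly6C high macrophages (0.79, adjusted p = 0.000519) and not called in the other comparisons.

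Of the 3 targets that restrain the pathway, Tnfaip3 was lower in 3 of the genotype comparisons and Tnip1 was higher in both of the spleen. Tnfaip3 encodes A20, which removes ubiquitin chains from signalling proteins. It was at 365, 555 and 561 RPM in wild-type and 132, 71.3 and 94.2 RPM in Rnaset2-/- liver Ly6C high macrophages. Values in liver Ly6C low macrophages were 287, 566 and 517 RPM against 86.8, 56.4 and 83.1 RPM. The groups did not overlap, and the wild-type means were 4.98 and 6.05 times higher (log2 fold change -2.64 ± 0.30 (SE), adjusted p = 0.0011 and log2 fold change -2.59 ± 0.31 (SE), adjusted p = 0.000417). In spleen Ly6C high macrophages it was at 280.3, 342 and 268 RPM against 106, 150.4 and 89.98 RPM (log2 fold change -1.26 ± 0.18 (SE), adjusted p = 0.000506). Spleen Ly6C low macrophages had 248, 339 and 237 RPM against 201, 160.1, 169 and 207 RPM, apart but not called (-0.55, adjusted p = 0.0676).

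Tnip1 and Tnip3 encode ABIN proteins, which bind A20. In spleen Ly6C high macrophages Tnip1 was at 139, 143 and 150.3 RPM in wild-type and 263, 268 and 213 RPM in Rnaset2-/- mice, and Tnip3 was at 6.87, 4.16 and 7.49 RPM against 17.05, 17.6 and 15.2 RPM. Both were higher in all 3 Rnaset2-/- libraries (log2 fold change 0.89 ± 0.11 (SE), adjusted p = 0.000207, and log2 fold change 1.43 ± 0.20 (SE), adjusted p = 0.000363), and the call of Tnip3 was lost in the single fit (adjusted p 0.0736). Tnip1 was also called higher in spleen Ly6C low macrophages (0.62, adjusted p = 0.0497), and that call was lost without any 1 of the 7 libraries other than Rnaset2-/- replicate 1 (highest adjusted p 0.168). In liver Ly6C low macrophages Tnip3 was at 55.9, 64.8 and 50.8 RPM in wild-type and 39.5, 3.502 and 3.44 RPM in Rnaset2-/- mice. Replicate 1 of the Rnaset2-/- group lay near the wild-type libraries and the other 2 far below them, and the call of a lower level (log2 fold change -2.67 ± 0.76 (SE), adjusted p = 0.0216) was lost in edgeR, in DESeq2 and without any 1 of the 6 libraries other than Rnaset2-/- replicate 1 (highest adjusted p 0.103).

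Of the survival targets, Birc3 (cIAP2, an inhibitor of cell death that also acts in TNF receptor signalling) had little spread. It was at 315, 312 and 353 RPM in wild-type and 102, 101 and 98.2 RPM in Rnaset2-/- liver Ly6C high macrophages, and at 287, 276 and 272 RPM against 76.4, 68.9 and 65.2 RPM in Ly6C low macrophages. Every library of one genotype was thus well apart from the other (log2 fold change -2.01 ± 0.17 (SE), adjusted p = 0.000368 and log2 fold change -2.02 ± 0.14 (SE), adjusted p = 3.97e-05), while all 13 spleen libraries lay between 104 and 130.2 RPM. Sod2, the mitochondrial superoxide dismutase, was higher in Rnaset2-/- spleen, from 196, 199 and 189.6 to 331, 330.3 and 274 RPM in Ly6C high macrophages and from 156, 213 and 210.5 to 344, 326, 453 and 476 RPM in Ly6C low macrophages. Neither pair of groups overlapped (log2 fold change 0.79 ± 0.10 (SE), adjusted p = 0.000303, and log2 fold change 1.05 ± 0.20 (SE), adjusted p = 0.0194), although the Ly6C low call was lost without any single wild-type library (adjusted p 0.0666 to 0.0759) and the Ly6C high call in the single fit (adjusted p 0.201). Cflar, which encodes c-FLIP, an inhibitor of caspase-8, was not called in these comparisons.

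Among effector and surface targets, Cd83 had the largest fold change of the members in 3 of the 4 genotype comparisons. It encodes a surface protein of activated antigen-presenting cells. Wild-type liver Ly6C high macrophages had 324, 301 and 659 RPM and Rnaset2-/- macrophages 4.14, 6.10 and 5.62 RPM. In the Ly6C low subset the values were 477, 1496 and 645 RPM against 2.62, 3.04 and 4.06 RPM. The lowest wild-type liver library was at 301 RPM and the highest Rnaset2-/- library at 6.10 RPM, with a ratio of means of 80.9 in Ly6C high and 270.0 in Ly6C low macrophages (log2 fold change -6.30 ± 0.32 (SE), adjusted p = 8.79e-05 and log2 fold change -7.56 ± 0.40 (SE), adjusted p = 1.41e-05). In spleen Ly6C low macrophages Cd83 was at 37.3, 102 and 39.8 RPM in wild-type and 3.56, 4.47, 8.72 and 4.86 RPM in Rnaset2-/- mice, again apart (log2 fold change -3.14 ± 0.39 (SE), adjusted p = 0.00363). In spleen Ly6C high macrophages the gene was low in both genotypes, at 3.05, 3.75 and 3.43 RPM against 1.09, 3.48 and 1.33 RPM, and overlapped (-0.57, adjusted p = 0.135).

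Plaur, the receptor for urokinase, was at 449, 595 and 542 RPM in wild-type and 42.03, 20.9 and 21.05 RPM in Rnaset2-/- liver Ly6C low macrophages. In liver Ly6C high macrophages the values were 771, 985 and 828 RPM against 155, 269 and 265 RPM. The Ly6C low groups differed by 18.9 times in their means and the Ly6C high groups by 3.75 times (log2 fold change -4.30 ± 0.28 (SE), adjusted p = 2.97e-05 and log2 fold change -2.26 ± 0.21 (SE), adjusted p = 0.000548). The 13 spleen libraries lay between 377 and 767 RPM, and neither spleen comparison was called. Ptgs2, which encodes the inducible cyclooxygenase COX-2, was at 106, 158 and 212 RPM in wild-type and 21.4, 1.01 and 3.52 RPM in Rnaset2-/- liver Ly6C low macrophages, without overlap (log2 fold change -4.73 ± 0.76 (SE), adjusted p = 0.00171). It was also lower in spleen Ly6C high macrophages (-0.72, adjusted p = 0.00658), a call lost without replicate 3 of the Rnaset2-/- group and in the single fit (highest adjusted p 0.505).

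Cd80 was lower in all 4 comparisons. It was at 25.3, 34.4 and 32.8 RPM in wild-type and 9.93, 3.11 and 3.22 RPM in Rnaset2-/- liver Ly6C low macrophages. In spleen Ly6C low macrophages the values were 10.6, 18.05 and 13.7 RPM and 6.62, 6.81, 4.40 and 3.03 RPM. No groups overlapped, and the log2 fold changes were -2.49 and -1.30 (adjusted p = 0.00142 and 0.0238) here and -1.91 and -1.18 in liver and spleen Ly6C high macrophages (adjusted p = 0.00963 and 0.000808). The spleen Ly6C low call was lost without wild-type replicate 2 (adjusted p 0.109) or 3 (adjusted p 0.102). Sdc4, the heparan sulphate proteoglycan syndecan-4, was lower in spleen Ly6C high macrophages, at 17.8, 15.1 and 14.6 RPM in wild-type and 5.48, 3.53 and 3.23 RPM in Rnaset2-/- mice, without overlap (log2 fold change -1.65 ± 0.19 (SE), adjusted p = 0.000132), a call lost in the single fit (adjusted p 0.147).

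Cd40, the receptor for the T cell ligand CD154, was at 41.1, 52.9 and 43.7 RPM in wild-type and 44.8, 7.39 and 6.36 RPM in Rnaset2-/- liver Ly6C low macrophages. Replicate 1 of the Rnaset2-/- group lay within the wild-type range and the other 2 libraries far below it, and the call of a lower level (log2 fold change -1.76 ± 0.62 (SE), adjusted p = 0.0476) was lost in edgeR, in DESeq2 and without any 1 of the 6 libraries other than Rnaset2-/- replicate 1 (highest adjusted p 0.16). In liver Ly6C high macrophages the values were 114, 135 and 115 RPM against 299, 79.9 and 99.8 RPM, with replicate 1 of the Rnaset2-/- group above and the others below all wild-type libraries (-0.17, adjusted p = 0.813), and the sign turned with RPM as deposited (0.14). Spleen Ly6C high macrophages had 45.6, 45.7 and 42.5 RPM against 67.1, 39.6 and 48.6 RPM (0.29, adjusted p = 0.176), and spleen Ly6C low macrophages had 20.8, 18.2 and 20.02 RPM against 6.26, 15.97, 15.8 and 13.5 RPM (-0.64, adjusted p = 0.204). The first of these pairs overlapped and the second did not, and neither was called.

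One Rnaset2-/- liver replicate number stood apart from the others in several effector and survival targets, in both subsets. Nos2, the inducible nitric oxide synthase, was at 295, 6.95 and 5.31 RPM in Rnaset2-/- liver Ly6C high macrophages and at 43.95, 0.623 and 1.07 RPM in the Ly6C low subset, in the order of replicates 1 to 3. The wild-type libraries had 6.02, 5.59 and 4.56 RPM and 0.745, 4.18 and 3.04 RPM. Replicate 1 was thus above every other library in each subset, and replicates 2 and 3 were between 0.623 and 6.95 RPM. The comparison was not called (1.68, adjusted p = 0.368, in Ly6C high and 0.65, adjusted p = 0.676, in Ly6C low), and the log2 fold changes became -0.16 and -0.87 without replicate 1. In the spleen Nos2 was at 0 to 0.071 RPM, under the level of 3 reads.

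Sod2 had the same high replicate, at 2135, 499.5 and 508 RPM in Rnaset2-/- liver Ly6C high and 851, 336 and 322 RPM in Ly6C low macrophages. Tnfaip2, a TNF-induced gene of the exocyst family, was at 2387, 497 and 704 RPM and 1452, 268 and 335 RPM. Sdc4 was at 542, 53.6 and 91.2 RPM and 79.9, 4.12 and 9.72 RPM. In each of these, replicate 1 stood far above replicates 2 and 3. Between replicate 1 and the others, counts differed by a chi-square of 205.3 and 211 per degree of freedom in Ly6C high macrophages, against 24.9 between replicates 2 and 3, and by 122.9 and 155 against 58.9 in Ly6C low macrophages. Cd83 and Nfkbia did not share this pattern, since their Rnaset2-/- libraries stayed below every wild-type liver library, replicate 1 included. Without replicate 1, 24 members were called in Ly6C high macrophages, with Ptgs2 (-2.70, adjusted p = 2.96e-05), Cd40 (-0.81, adjusted p = 0.0036) and Sdc4 (-1.50, adjusted p = 0.000502) lower in addition. In Ly6C low macrophages 24 were called, with Sdc4 lower (-3.39, adjusted p = 0.00021) and Irak4 higher (0.65, adjusted p = 0.0283) in addition.

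**Figure D3:**
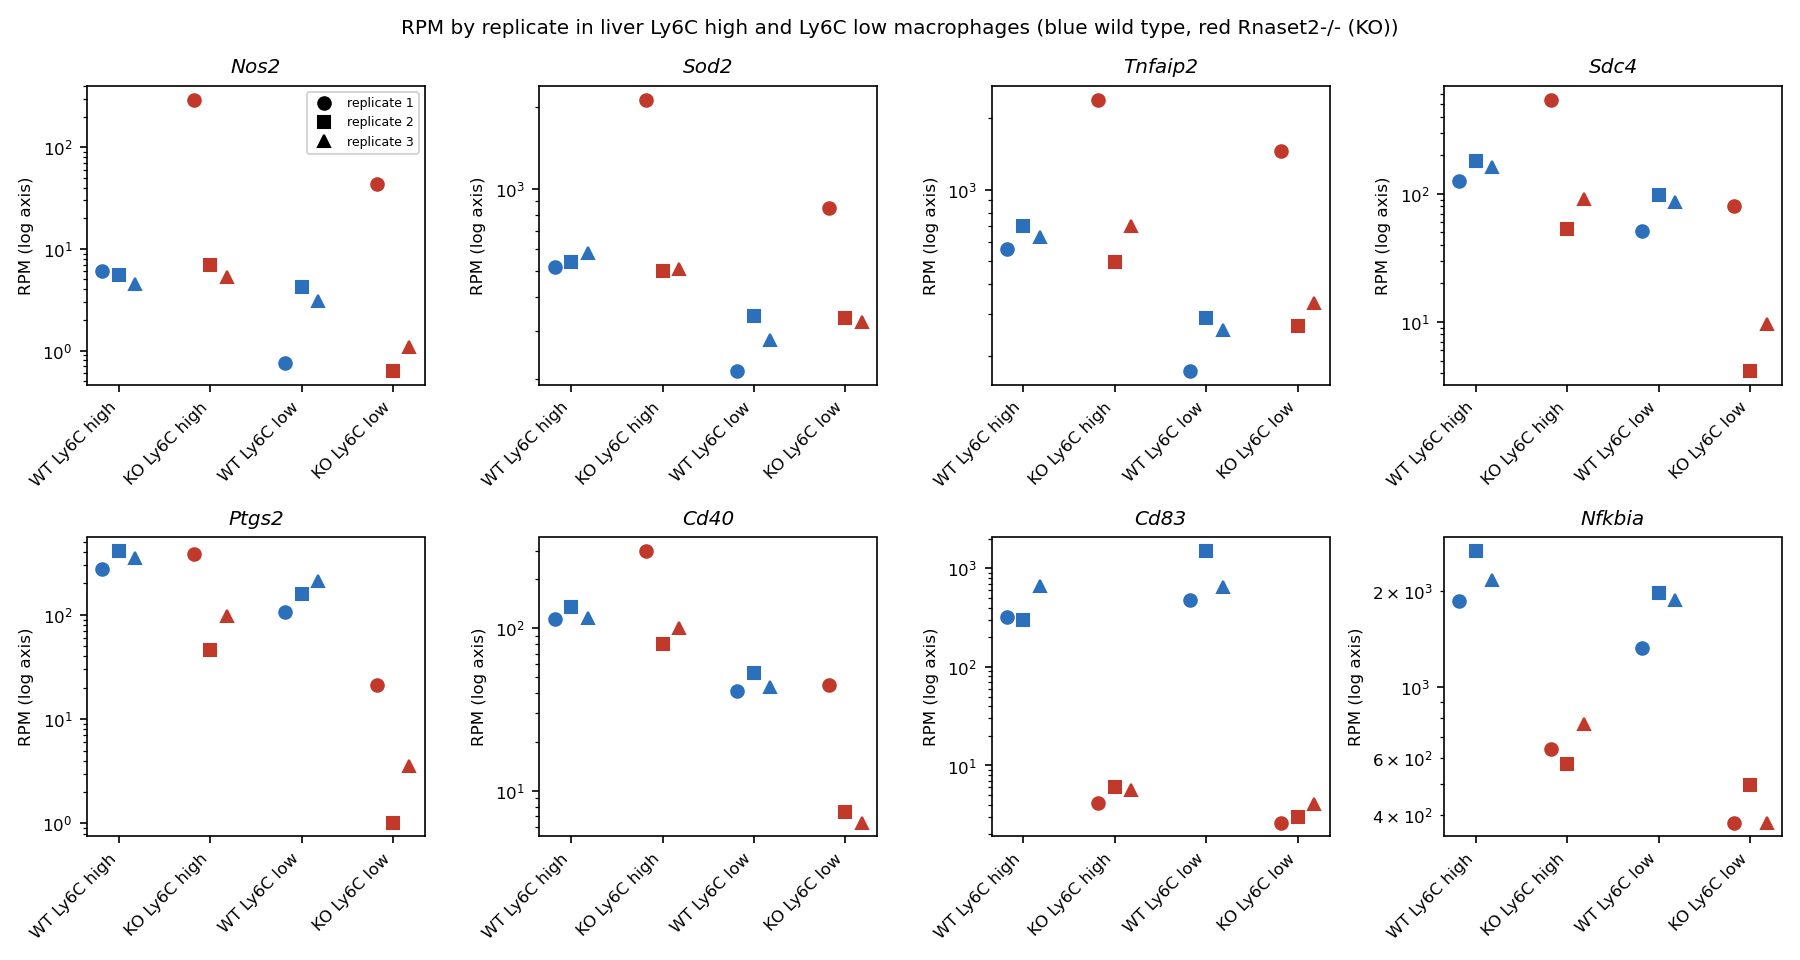
RPM (log axis) of Nos2, Sod2, Tnfaip2, Sdc4, Ptgs2, Cd40, Cd83 and Nfkbia in the liver Ly6C libraries of wild-type (blue) and Rnaset2-/- (KO, red) mice, with the marker shape giving the replicate number. For Nos2, Sod2, Tnfaip2 and Sdc4 the red circle, replicate 1, lies far above the other red symbols in both subsets, whereas for Cd83 and Nfkbia all red symbols lie below the blue ones.

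The difference between genotypes was itself compared between organs with an interaction term, liver minus spleen, within each subset. In Ly6C high macrophages 16 of 40 members had a lower interaction (a more negative change in the liver) and 1 a higher, against 16.0% lower and 17.6% higher of all tested genes, and with RPM as deposited 10 were lower and 3 higher. The largest were Cd83 (difference -5.71 ± 0.47 (SE), adjusted p = 4.13e-06), Chuk (difference -3.78 ± 0.48 (SE), adjusted p = 0.000121) and Nfkbiz (difference -2.12 ± 0.32 (SE), adjusted p = 0.000437). Birc3 (-2.05, adjusted p = 7.14e-06), Plaur (-2.004, adjusted p = 7.06e-05) and Rel (-2.003, adjusted p = 0.00502) differed in the same direction, and Traf1 (1.49, adjusted p = 0.0101) was the gene with a higher interaction. Nfkbia, called lower in both organs, was not among them (-0.71, adjusted p = 0.0893). In Ly6C low macrophages 12 of 40 were lower and none was higher, against 14.7% lower and 12.1% higher of all genes. Here Ptgs2 (difference -5.45 ± 0.85 (SE), adjusted p = 0.000527), Cd83 (difference -4.42 ± 0.62 (SE), adjusted p = 0.00029) and Plaur (difference -4.03 ± 0.33 (SE), adjusted p = 4.88e-06) were the largest, and Nfkbia (-1.71, adjusted p = 0.000502), Nfkbid (-3.29, adjusted p = 5.57e-05), Tnfaip3 (-2.02, adjusted p = 0.00182) and Birc3 (-1.97, adjusted p = 1.26e-05) were among the rest. These tests share all their libraries with the genotype comparisons. The difference in Xist and Y-linked genes followed genotype in the liver, while in the spleen only replicate 2 of Rnaset2-/- Ly6C low macrophages had low Xist. An organ difference in the genotype change and this difference cannot be told apart.

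Wild-type macrophages were then compared between organs, subsets and with KCs, using the same libraries that served as controls above, and values of spleen or of Ly6C high macrophages come first. In Ly6C high macrophages 26 of 40 members were higher in liver than in spleen and 0 were lower, against 17.1% higher and 20.7% lower of all tested genes. Targets had 14 higher calls of 15 and components 12 of 25, and the median log2 fold change was 1.04 over the members and -0.042 over all genes. At an adjusted p below 0.05 without a fold threshold, 29 were higher and 0 lower, edgeR and DESeq2 each gave 28 higher and 0 lower, and RPM as deposited gave 21 higher, with the median of all genes at -0.30. The largest differences were Cd83, at 3.05, 3.75 and 3.43 RPM in spleen and 324, 301 and 659 RPM in liver (log2 fold change 6.75 ± 0.28 (SE), adjusted p = 4.89e-07), Chuk, at 0.763, 1.39 and 0.77 RPM against 29.1, 13.4 and 32.7 RPM (log2 fold change 3.84 ± 0.32 (SE), adjusted p = 1.64e-05), and Sdc4, at 17.8, 15.1 and 14.6 RPM against 125, 180.3 and 163 RPM (log2 fold change 3.48 ± 0.15 (SE), adjusted p = 5.4e-07). All 5 members of the IkB family were higher in liver, among them Nfkbiz and Nfkbid (1.72 and 1.78). Neutrophil genes summed to 30443 to 32676 RPM in spleen and 239 to 2353 RPM in liver, NK cell genes to 622 to 651 and 30.5 to 45.4 RPM, and T cell genes to 232.9 to 240.5 and 8.26 to 13.4 RPM, and their part in these differences was not tested.

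In Ly6C low macrophages 15 of 39 tested members were higher in liver and 2, Ikbkb and Traf3, were lower, against 18.8% higher and 15.3% lower of all genes. Cd83 was at 37.3, 102 and 39.8 RPM in spleen and 477, 1496 and 645 RPM in liver (log2 fold change 3.87 ± 0.45 (SE), adjusted p = 0.000155). Sdc4 was at 6.43, 4.46 and 3.58 RPM against 51.2, 97.1 and 86.3 RPM (log2 fold change 3.78 ± 0.27 (SE), adjusted p = 9.06e-06). Ptgs2 was at 8.81, 15.3 and 12.4 RPM against 106, 158 and 212 RPM (log2 fold change 3.62 ± 0.27 (SE), adjusted p = 1.07e-05). The groups did not overlap for these 3 genes. The calls of Nfkbia (0.62, adjusted p = 0.0202) and Tnfaip3 (0.73, adjusted p = 0.0423) were each lost without spleen replicate 1 or 3 or liver replicate 2 or 3 (highest adjusted p 0.0869 and 0.15).

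Between subsets of wild-type spleen, 13 of 39 tested members were higher in Ly6C low than in Ly6C high macrophages and 5 were lower, against 13.8% higher and 19.8% lower of all genes; a single fit of all libraries gave 12 and 2. Cd83 (log2 fold change 3.75 ± 0.32 (SE), adjusted p = 5.41e-06) and Tnip3 (log2 fold change 1.54 ± 0.20 (SE), adjusted p = 0.000101) were higher, at 6.87, 4.16 and 7.49 RPM in Ly6C high and 15.4, 18.9 and 18.8 RPM in Ly6C low macrophages for Tnip3. Ptgs2 was lower, at 50.2, 43.2 and 48.8 RPM against 8.81, 15.3 and 12.4 RPM (log2 fold change -1.77 ± 0.18 (SE), adjusted p = 1.93e-05), as were Ikbke, Tnfaip2, Cd40 and Sdc4, with log2 fold changes between -1.52 and -0.999. Components had 10 higher and 1 lower calls of 25, and targets 3 higher and 4 lower of 14.

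In wild-type liver, no member was higher in the Ly6C low subset and 9 of 40 were lower, 8 of them targets, against 5.24% higher and 4.84% lower of all genes. The component among them was Ikbke, at 145, 162 and 170.4 RPM in Ly6C high and 27.6, 49.8 and 45.4 RPM in Ly6C low macrophages (log2 fold change -2.08 ± 0.22 (SE), adjusted p = 0.000414). Tnfaip2 was at 560.5, 706 and 634 RPM against 172, 289 and 256 RPM (log2 fold change -1.54 ± 0.20 (SE), adjusted p = 0.00125), and Cd40 at 114, 135 and 115 RPM against 41.1, 52.9 and 43.7 RPM (log2 fold change -1.50 ± 0.15 (SE), adjusted p = 0.000329). The subsets did not overlap for these genes, and a single fit of all libraries called 3 members.

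**Figure D4:**
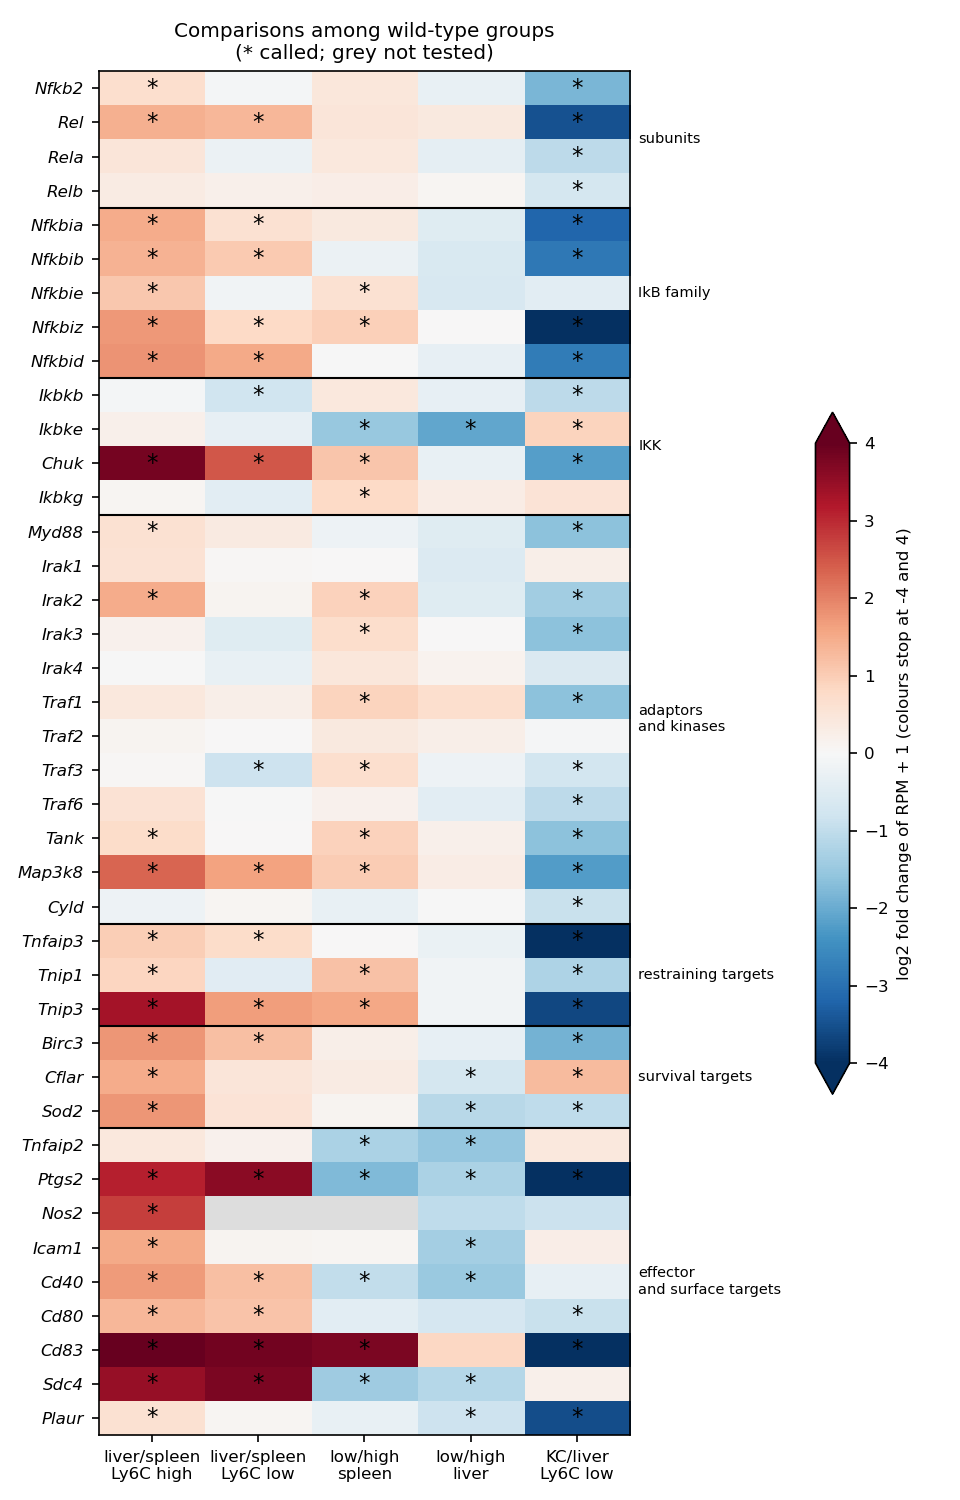
Log2 fold change of RPM + 1 (colour, from -4 in dark blue to 4 in dark red) of the 40 members in 5 comparisons of wild-type cells, with asterisks at called genes and grey where a gene was not tested. In the first column, liver against spleen Ly6C high macrophages, 26 genes are called and all are red, and in the last, Kupffer cells against liver Ly6C low macrophages, 28 are called in blue and 2 in red.

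Kupffer cells had the lowest mean of the 9 groups, in RPM as deposited, for 13 of 40 members. The share over all genes was not counted, so this is not read as a trait of the members. Against wild-type liver Ly6C low macrophages, 28 of 40 members were lower in KCs and 2, Ikbke and Cflar, were higher, where 24.0% of all tested genes were lower and 26% higher. With RPM as deposited the counts were 20 lower and 7 higher, and the median of all genes moved to 0.546. The call of Ikbke was lost without KC replicate 4 or wild-type Ly6C low replicate 1 (highest adjusted p 0.108). Cd83 was at 28.8, 17.97, 21.7 and 18.03 RPM in KCs (log2 fold change -5.70 ± 0.35 (SE), adjusted p = 6.87e-07), Ptgs2 at 4.67, 21.6, 7.68 and 4.61 RPM (log2 fold change -4.66 ± 0.44 (SE), adjusted p = 1.31e-05) and Nfkbiz at 174, 138, 194 and 158 RPM (log2 fold change -4.62 ± 0.16 (SE), adjusted p = 2.53e-08). All of these lay below the wild-type Ly6C low libraries given above. Endothelial genes, whose list shares Cdh5 with the Kupffer cell list, summed to 2941 to 5973 RPM in KCs and 266 to 424 RPM in Ly6C low macrophages. Hepatocyte genes summed to 1239 to 4042 and 47.8 to 207 RPM, and B cell genes to 508 to 942 and 26.1 to 30.2 RPM. T cell genes summed to 205 to 356 and 11.9 to 14.7 RPM, and NK cell genes to 203 to 567 and 23.7 to 28.3 RPM. The part of these lists in the result was not tested. Cflar was at 104, 151, 118 and 52.7 RPM in KCs and 27.8, 29.6 and 24.2 RPM in Ly6C low macrophages (log2 fold change 1.26 ± 0.29 (SE), adjusted p = 0.00417).

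Rnaset2-/- liver Ly6C low macrophages, in which the Kupffer cell list was high, were also compared with wild-type KCs. Of 40 members, 15 were higher in the Rnaset2-/- macrophages and 6 lower, against 19.4% higher and 26.3% lower of all genes, and with RPM as deposited 10 were higher and 12 lower. This comparison differs at once in genotype, in sorting gate and in Xist, at 647 to 949 RPM in KCs and 0 in the Rnaset2-/- libraries, and these cannot be told apart. Irak3 was at 45.7, 50.2, 73.9 and 59.97 RPM in KCs, below every one of the Rnaset2-/- libraries (log2 fold change 3.47 ± 0.19 (SE), adjusted p = 9.66e-06), and Nfkbiz followed (log2 fold change 2.67 ± 0.23 (SE), adjusted p = 5.51e-05). Cd83 was lower in the Rnaset2-/- macrophages (log2 fold change -1.95 ± 0.27 (SE), adjusted p = 0.00054), as were Chuk, Nfkbid, Cd80 and Cflar, the last of which was not called without Rnaset2-/- replicate 3 (adjusted p 0.0728). Sdc4 was lower too (log2 fold change -2.50 ± 0.76 (SE), adjusted p = 0.0223), at 139, 97.0, 168 and 128 RPM in KCs, a call lost in edgeR, in DESeq2, without KC replicate 3 or 4 and without Rnaset2-/- replicate 2 or 3 (highest adjusted p 0.169). Without Rnaset2-/- replicate 1, Cd40 (-2.29, adjusted p = 0.000196) and Plaur (-1.06, adjusted p = 0.0214) were lower in addition.

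Genes of the pathway outside the 40 members were counted from lists of 37 other components and 39 other targets, of which 35 and 37 were in the table. In liver Ly6C low macrophages 9 of 34 other components were lower and 1 higher in Rnaset2-/- mice, and 15 of 33 other targets were lower and 1 higher, against the 22.5% lower and 20.2% higher of all tested genes. Malt1, a protease of the CARD-BCL10-MALT1 complex, fell by 2.33 on the log2 scale (adjusted p = 0.000148), and Bcl3, an atypical IkB protein, rose by 1.09 (adjusted p = 0.00268). The chemokine gene Cxcl2 was at 409 ± 166 RPM in wild-type and 1.08 ± 1.27 RPM in Rnaset2-/- mice (mean ± SD, n = 3 each; log2 fold change -7.71, adjusted p = 2.23e-05 in limma), and Ccl22 was lower as well (-5.95, adjusted p = 8.76e-06). Gbp5, a guanylate-binding protein, was higher (1.81, adjusted p = 0.0398).

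In liver Ly6C high macrophages 5 of 34 other components were lower and 1 higher, and 13 of 35 other targets were lower and 3 higher, against 14.9% lower and 15.7% higher of all genes. Card9, an adaptor of C-type lectin receptors (-1.28, adjusted p = 0.00397), and Cxcl2 (-4.60, adjusted p = 0.000359) were lower. Il12b, the p40 subunit of interleukin-12, was higher (4.32, adjusted p = 0.000263), as was Tnfrsf9 (4-1BB; 3.5, adjusted p = 0.00016). Spleen Ly6C high macrophages had 1 higher and 1 lower call of 34 other components and 5 higher and 12 lower of 32 other targets, against 9.77% higher and 12.5% lower of all genes. Spleen Ly6C low macrophages had 1 higher and 2 lower calls of 34 other components and 4 higher and 2 lower of 32 other targets, against 4.05% higher and 4.30% lower. Il1b was higher in both spleen subsets (1.30, adjusted p = 8.92e-05, and 2.32, adjusted p = 0.000579), and Ccl5 (-2.84 and -2.47) and Ccr7 (-2.65 and -1.96) were lower in both. Il1b is also expressed by neutrophils, Ccl5 by NK and T cells and Ccr7 by T cells and dendritic cells, whose marker lists are given next.

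Levels of other gene lists moved with these results. The immediate early list of 29 genes, such as Fos and Jun, which rise during tissue dissociation as well as after receptor signalling, summed to 30746 to 44120 RPM in wild-type liver Ly6C macrophages and to 2012 to 10206 RPM in Rnaset2-/- liver macrophages, with 24 genes lower in the Ly6C high and 28 in the Ly6C low subset. No member is on that list. In KCs it summed to 3045 to 4349 RPM. In the spleen it was at 20789 to 20894 RPM in wild-type and 10699 to 14117 RPM in Rnaset2-/- Ly6C high macrophages, with 20 genes lower, and at 18702 to 24535 and 17888 to 25643 RPM in Ly6C low macrophages, with none called. The list thus fell in the 3 comparisons in which Nfkbia, Nfkbiz, Nfkbid and Tnfaip3 were lower and did not in the spleen Ly6C low subset. It also differed between wild-type liver and spleen, with 18 genes higher and 1 lower in Ly6C high and 19 higher and 1 lower in Ly6C low macrophages. Its part in the results was not tested.

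Lists of other cell types also differed between genotypes. In liver Ly6C high macrophages, T cell genes summed to 8.26 to 13.4 RPM in wild-type and 191.7 to 296 RPM in Rnaset2-/- libraries, NK cell genes to 30.5 to 45.4 and 232 to 526 RPM, and endothelial genes to 78.5 to 115 and 415 to 2473 RPM. Spleen Ly6C high macrophages had T cell genes at 232.9 to 240.5 RPM in wild-type and 16.1 to 34.5 RPM in Rnaset2-/- libraries, and NK cell genes at 622 to 651 and 86.8 to 215 RPM. Neutrophil genes summed to 30443 to 32676 RPM in wild-type and 33147 to 57764 RPM in Rnaset2-/- spleen Ly6C high macrophages. That list includes S100a8 and S100a9, its sum is not split by gene here, and these cells were sorted as Ly6G(-). The sum is thus not a measure of neutrophil number. In the spleen Ly6C low subset the neutrophil genes summed to 1053 to 2401 RPM in wild-type libraries. The Rnaset2-/- libraries of that subset were split, at 39164 and 22386 RPM in replicates 1 and 2 and 4302 and 3362 RPM in replicates 3 and 4. In Rnaset2-/- liver Ly6C low macrophages the neutrophil list summed to at most 11.9 RPM, with Elane and Mpo at 0 in every library. Dendritic cell genes summed to 148.4 to 151.8 RPM in wild-type and 18.2 to 26.4 RPM in Rnaset2-/- spleen Ly6C high macrophages, and to 252.5 to 315 and 116 to 259 RPM in liver Ly6C low macrophages. Endothelial genes summed to 271 to 325 and 1461 to 2202 RPM in spleen and to 266 to 424 and 1385 to 4236 RPM in liver Ly6C low macrophages. This list shares Cdh5 with the Kupffer cell list. Its gene Stab2 was at 0 in every Rnaset2-/- spleen Ly6C low library, and Tek in every wild-type one. B cell genes summed to 19.1 to 21.4 against 100.4 to 312 RPM in liver Ly6C high and to 26.1 to 30.2 against 106.8 to 378 RPM in liver Ly6C low macrophages. Erythroid genes summed to 0.463 to 3.755 against 51.1 to 254 RPM and to 0.911 to 4.706 against 53.8 to 149 RPM in the same subsets. T cell genes in liver Ly6C low macrophages summed to 11.9 to 14.7 against 33.5 to 94.2 RPM, and the macrophage and monocyte list to 13804 to 18632 against 4424 to 11575 RPM. The part of these lists in the changes of the members was not tested.

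**Figure D5:**
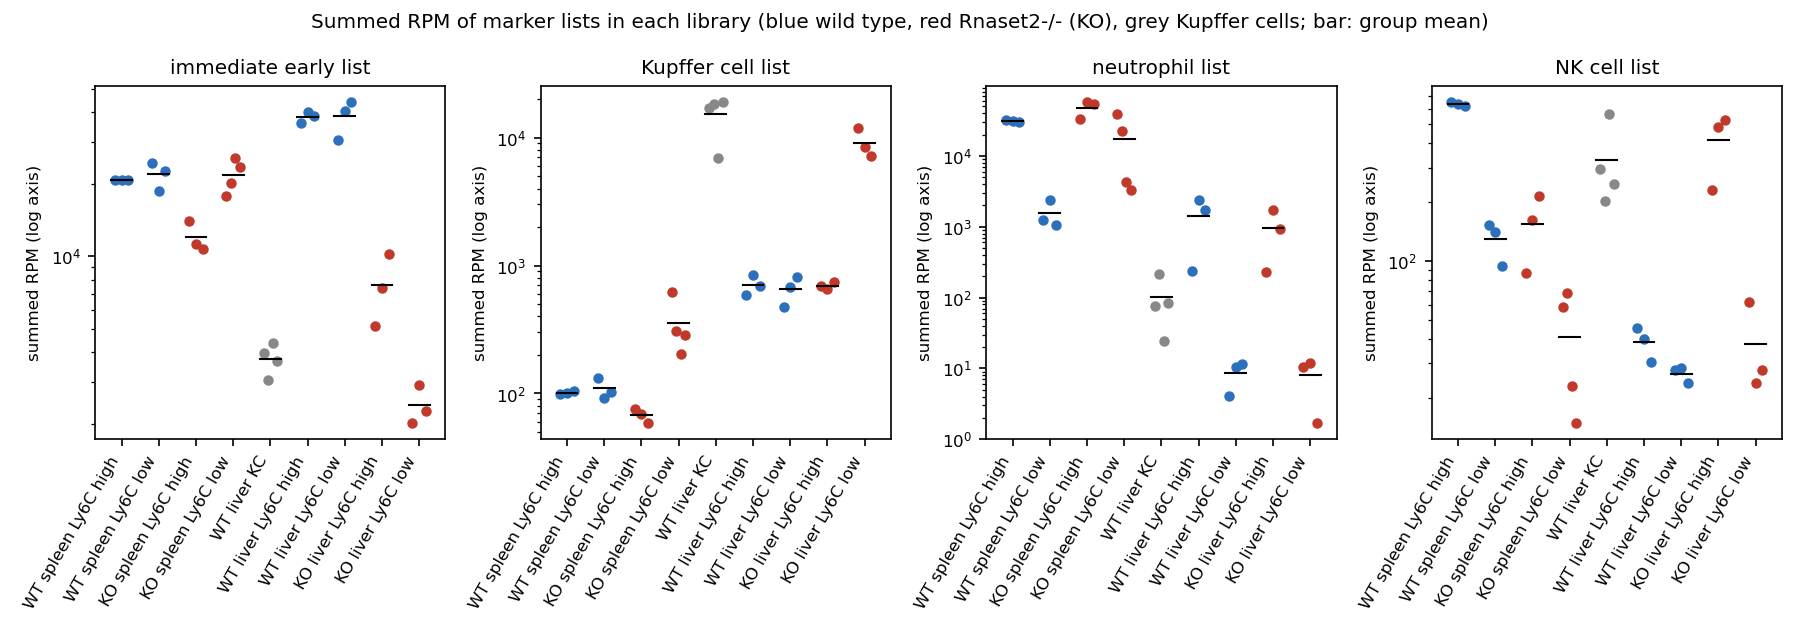
Summed RPM (log axis) of the immediate early, Kupffer cell, neutrophil and NK cell lists in each of the 29 libraries by group, with wild type in blue, Rnaset2-/- (KO) in red, Kupffer cells in grey and a bar at the group mean. The immediate early sum is highest in wild-type liver macrophages (30746 to 44120 RPM) and lowest in Rnaset2-/- liver Ly6C low macrophages (2012 to 2892 RPM).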

How the data were processed

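Libraries were prepared by the authors with the Ion AmpliSeq Transcriptome Mouse kit from RNA of sorted macrophages, sequenced on an Ion Proton, and processed with the AmpliSeqRNA plug-in of the Torrent Suite against mm10, as the methods and the submitters' processing notes give it. The deposited values are RPM, reads of 1 amplicon per gene scaled to a common library total, and 100.0% of them were whole reads within 0.1 reads once divided by the step of their library, which gave back the deposited counts of reads.

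Each comparison was fitted on its own libraries in limma 3.58.1 (R 4.3.3), on log2(RPM + 1) after scaling by relative log expression size factors, for genes of at least 1 RPM in at least 3 of these libraries, with a mean-variance trend, two-sided tests and Benjamini-Hochberg adjustment over all genes tested. A call needed more than 1.5-fold and an adjusted p below 0.05. The genotype comparisons were fitted in each organ and subset, and an interaction term compared them between organs. All columns of the table had a sample.

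Alternatives were RPM as deposited, an added value of 0.1, no filter, a joint fit of every library, a block for the replicate number, edgeR 4.0.16 (quasi-likelihood) and DESeq2 1.42.0 on the recovered counts of reads, adjusted p alone, and leaving out each library. The fits of each comparison in limma, edgeR and DESeq2 were tested on simulated data. The other alternatives, the outlier test and the checks of pairing and counting noise were not.

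Members with values in every library were, per genotype comparison, the 3 largest called rises and the 3 largest called falls among members of at least 10 RPM in a group and without overlap, the 3 largest differences of each other comparison, and a fixed set (Rela, Nfkbia, Nfkbiz, Tnfaip3, Myd88, Irak3, Cd40, Cd83 and Nos2). Rel, Chuk, Birc3, Traf1 and Tnip3 beyond that rule were chosen after their values were seen. For other pathway genes the 2 largest called rises and falls per comparison were eligible. Members, lists and tests were chosen with earlier results of these data known. No source says that replicates are separate mice, so p-values measure the spread between these libraries, which may be technical. All pairs of replicates differed by more than counting noise (lowest chi-square per degree of freedom 6.17). Separate preparations of the same RNA could also differ in this way, so this does not show that they are separate samples. Each library was nevertheless counted as 1 sample. The wild-type spleen Ly6C high libraries were the most alike, at 6.17 to 8.75, and the p-values of their comparisons rest partly on that small spread. Same-numbered libraries did not deviate together in every pair of any comparison checked (correlations -0.193 to 0.596), so the numbers were not taken as pairs. The highest correlation was that of replicate 1 between the subsets of wild-type liver. In both of those subsets the Y-linked sum was 0 in replicate 1 and 28.95 to 52.03 RPM in replicates 2 and 3. Rnaset2-/- liver Ly6C high against Ly6C low macrophages was not checked, and there replicate 1 stood apart in both subsets. Whether a replicate number stands for shared mice was not tested. Promoter sequences came from RefSeq (GRCm38.p6).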

Additional observations from a re-analysis of the deposited data

Results flagged for a closer look

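In groups of 4 libraries, the highest or lowest library of a member was called far from the others where its gap to the nearest one, divided by the range of the group, was above Dixon's critical value. Of 79 tests 2 met this, and chance alone gives about 1 in 20. Traf3 was at 23.26 RPM in replicate 1 of wild-type KCs, below the 31.7 to 33.13 RPM of the other 3 libraries. Ptgs2 was at 24.84 RPM in replicate 2 of Rnaset2-/- spleen Ly6C low macrophages, above the 18.35 to 19.45 RPM of the other 3 libraries. That library was also the one with low Xist.

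The difference between Rnaset2-/- and wild-type macrophages itself differed between liver and spleen for the following members (interaction term in limma, Benjamini-Hochberg adjusted p below 0.05 and more than 1.5-fold), given as the liver log2 fold change minus the spleen log2 fold change. In Ly6C high macrophages the difference was -2.003 for Rel and, in the IkB family, -1.33 for Nfkbib, -2.12 for Nfkbiz and -1.61 for Nfkbid. Among kinases and adaptors it was -3.78 for Chuk, -0.84 for Myd88, -1.12 for Irak1, -0.96 for Traf6, -0.88 for Tank, -1.66 for Map3k8 and 1.49 for Traf1. Among targets it was -1.34 for Tnfaip3, -1.53 for Tnip3, -2.05 for Birc3, -0.66 for Cflar, -5.71 for Cd83 and -2.004 for Plaur. With RPM as deposited the calls of Myd88, Irak1, Traf6, Tank, Tnfaip3 and Cflar were lost (highest adjusted p over the alternatives 0.423 for Cflar and 0.122 for Myd88), and Tnip3 was lost in a single fit of all libraries (adjusted p 0.125). The call of Tnfaip3 was also lost without wild-type spleen replicate 3, Rnaset2-/- spleen replicate 2 or wild-type liver replicate 3 (highest adjusted p 0.0556), and that of Cflar in 10 of 19 alternatives.

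In Ly6C low macrophages the difference was -1.71 for Nfkbia, -1.09 for Nfkbib, -2.28 for Nfkbiz and -3.29 for Nfkbid in the IkB family. Among kinases it was -2.74 for Chuk and -0.98 for Map3k8, whose call was lost in 11 of 20 alternatives (highest adjusted p 0.104). The call of Nfkbib was lost in 5 of 20 alternatives (highest adjusted p 0.075), among them those without wild-type spleen replicate 1, wild-type liver replicate 2 or 3 and Rnaset2-/- liver replicate 2. Among targets it was -2.02 for Tnfaip3, -3.60 for Tnip3, -1.97 for Birc3, -5.45 for Ptgs2, -4.42 for Cd83 and -4.03 for Plaur. No member had a higher interaction in this subset. In neither subset can these differences be told apart from the difference in Xist and Y-linked genes, which followed genotype in the liver. The immediate early list had 28 of 29 genes lower in the same test and 0 higher, and its part in these differences was not tested.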

How the results depend on the processing

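The number of called members stayed within 1.5 times its value in most settings. No member that was called both in the main fit and in an alternative turned direction. In spleen Ly6C high macrophages a single fit of all libraries called 7 members in place of 14, and in wild-type liver it called 3 in place of 9 between subsets. Leaving out 1 library gave 3 to 9 calls in spleen Ly6C low (6 with all) and 13 to 24 in liver Ly6C high macrophages (21 with all). The replicate number was also fitted as a block, although the check of pairing did not bear this out in every pair. It called 14 members in spleen Ly6C high, 5 in spleen Ly6C low, 16 in liver Ly6C high and 22 in liver Ly6C low macrophages. Between the subsets of wild-type liver it called 8 in place of 9.

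Members that were not called could turn sign. Cd40 in liver Ly6C high macrophages had a log2 fold change of -0.17, which became 0.14 with RPM as deposited, 0.16 in edgeR and 0.15 in DESeq2, and -0.81 to 0.22 when 1 library was left out (0.10 without Rnaset2-/- replicate 3). Nos2 had 1.68 in liver Ly6C high macrophages, with -0.16 to 2.71 when 1 library was left out, and 0.65 in Ly6C low, with -0.87 to 1.53. The negative values came without Rnaset2-/- replicate 1. Using RPM as deposited moved the median log2 fold change of all genes by more than 0.1 in liver Ly6C high (to 0.305), in the comparisons with KCs (0.546 and -0.557), between organs and subsets of wild-type Ly6C high cells (-0.299, -0.13 and 0.114) and in the Ly6C high interaction (0.354), so changes are read against scaled values. Causes were not tested. In the spleen Nos2 lay under the level of 3 reads, and the filter on low values left out Chuk in spleen Ly6C high macrophages.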
